A study of Mus musculus with 12 samples.

Results

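The response of male osteoclast precursors to RANKL was read from 6 of the 12 RNA sequencing libraries of the study: 3 cultured with M-CSF and RANKL and 3 with M-CSF alone. The other 6 libraries are the same cultures from female mice. Members are the 6 male libraries by their labels, and the response was described over the 13236 genes, of 23863 in the count table, with enough counts for a test. The cells were bone marrow cells sorted as negative for CD45R and CD3, with absent or low CD11b, and positive for CD115, the receptor for M-CSF. All mice, in both groups, were of the strain given as RUNX1fl/+, carrying 1 conditional allele of Runx1, and the titles also bear the tag WT. RANKL was given at 30 ng/ml, and the day of harvest is taken as 3 from the titles, since the growth protocol gives another duration. The labels give neither an age nor the mouse behind each library, so p-values measure the spread among these samples, which may be technical.

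RANKL is a cytokine of the tumour necrosis factor family. It binds RANK on monocyte-lineage cells, and through TRAF adaptors, NF-kB and AP-1, together with calcium signals from receptors that carry or couple to ITAM motifs, it brings up NFATc1, the transcription factor that drives osteoclast genes. M-CSF keeps the same precursors alive, and without RANKL they mature as macrophages. A mature osteoclast is a multinucleated cell that seals itself to bone, pumps acid onto it and secretes proteases that dissolve the matrix.

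The 3 M-CSF libraries held 10814687 to 14113420 counts and the 3 with RANKL 14379792 to 15983769. Levels are given as CPM, which are counts put on one library size for all samples by TMM. The label was met by Csf1r, which encodes CD115, at 1247 to 1654 CPM in all 6 libraries. The leukocyte gene Ptprc lay at 297 to 457 CPM and Cd68 at 987 to 1642 CPM. Itgam, which encodes CD11b, was measured at 189 to 199 CPM without RANKL and at 75.9 to 94.3 CPM with it. The macrophage gene Adgre1 went from 602 to 767 CPM down to 80.2 to 102 CPM. Some defining markers of other cells were near 0, with Cd3d (T cells) at no more than 0.0712 CPM, Cd79a (B cells) at no more than 0.260, Ly6g (neutrophils) at no more than 0.0928 and Col1a1 (stroma) at no more than 0.195. Other genes on the B cell, megakaryocyte and neutrophil lists were measured at higher levels, with sums in the M-CSF libraries of 141 to 339, 256 to 387 and 216 to 265 CPM. The female marker Xist did not exceed 0.278 CPM, and the Y chromosome gene Eif2s3y lay at 66.1 to 107 CPM. Runx1 was at 60.8, 59.8 and 64.3 CPM without RANKL and at 33.4, 38.9 and 41.3 CPM with it, a log2 fold change of -0.70 ± 0.11 (SE; edgeR quasi-likelihood test, adjusted p = 0.000118). The RANKL and M-CSF libraries of Runx1 did not overlap, so the gene whose conditional allele the mice carried was itself lower with RANKL.

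RANKL changed most of the tested genes. Of the 13236 genes, 7276 were called (55.0%) at a Benjamini-Hochberg adjusted p below 0.05, with 3753 higher (28.4%) and 3523 lower (26.6%). Those numbers are the background against which each group of genes below is read, together with a median log2 fold change of 0.01 over all tested genes. The median called rise was 1.11 and the median called fall -1.03 on the log2 scale, so the directions differed mainly in their largest changes. Among called genes, 2016 were at least 2-fold higher (15.2% of those tested) and 1815 at least 2-fold lower (13.7%), yet 704 rose by 8-fold or more against 301 that fell as far. Beyond a log2 fold change of 8 there were 106 rises and 1 fall. These counts use fitted values, which can exceed what the counts bound where a group has 0 counts. Calcr, with 0 counts in M-CSF, has a fitted value of 12.85 against a bound of 889-fold. Such genes passed the filter through other libraries, and their part in the contrast between rises and falls was not tested. Of the tested genes, 168 had 0 counts in all 3 M-CSF libraries, and 30 of these reached 5 CPM with RANKL. Only 6 tested genes had 0 counts in all 3 RANKL libraries, and none of these reached 5 CPM without it.

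The change also took up much of the messenger RNA pool. Genes called at least 2-fold higher held 5.88 to 6.08% of the scaled counts without RANKL and 22.6 to 24.3% with it, while those called at least 2-fold lower went from 21.3 to 22.8% down to 5.62 to 5.78%. Both sets were picked by their change in these same libraries. The direction of each shift was therefore fixed in advance, and the shares only describe how much of the pool these genes held. Because the libraries are bulk, more or fewer cells of a kind and more or less RNA per cell cannot be told apart. The groups were fully parted, with no overlap of single libraries, for 8105 genes (61.2%), and 7082 of the called genes were among them. For 6624 genes the 95% interval of the change lay within 2-fold in either direction, which covers 4470 of the 5960 genes that were not called.

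**Figure D1:**
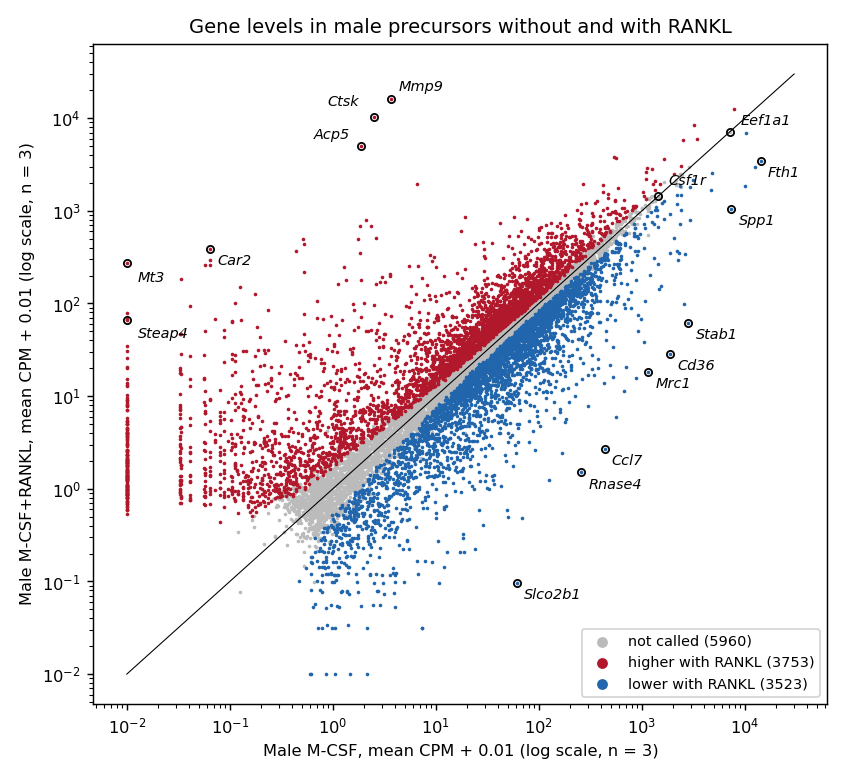
Mean CPM of each tested gene in the 3 male M-CSF libraries (horizontal, log scale, 0.01 added) and the 3 male M-CSF+RANKL libraries (vertical, log scale, 0.01 added), with red for the 3753 genes called higher, blue for the 3523 called lower and grey for the 5960 not called. The column of points at the left edge is the genes with 0 counts without RANKL, which has no equally tall counterpart along the bottom edge.

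Sequence upstream of the start is shown for 6 genes, because their changes are the largest among genes that reach 200 CPM and have an entry in the promoter table. Cd200, Oscar and Mt3 rose, and Rnase4, Igf1 and Cd36 fell. Each line gives the 250 bases before the start, 5′ to 3′ on the gene's strand, from RefSeq on GRCm38.p6, in lower case with motif matches in capitals. Where a gene had several starts, only the most upstream was used, also for the shares over all genes. Whether these cells use that start was not tested. The motifs searched on both strands were TGACTCA and TGAGTCA (AP-1, the dimer of Fos and Jun proteins), GGAAA (the core bound by NFAT proteins), GAGGAA (a core bound by PU.1, the myeloid factor encoded by Spi1) and the E boxes CACGTG and CACATG (bound by MITF and TFE proteins). The positions are chr8:94152357-94152606 (plus strand) for Mt3, chr16:45409054-45409303 (minus) for Cd200, chr7:3616158-3616407 (minus) for Oscar, chr14:51090827-51091076 (plus) for Rnase4, chr10:87860861-87861110 (plus) for Igf1 and chr5:17835897-17836146 (minus) for Cd36.
Mt3: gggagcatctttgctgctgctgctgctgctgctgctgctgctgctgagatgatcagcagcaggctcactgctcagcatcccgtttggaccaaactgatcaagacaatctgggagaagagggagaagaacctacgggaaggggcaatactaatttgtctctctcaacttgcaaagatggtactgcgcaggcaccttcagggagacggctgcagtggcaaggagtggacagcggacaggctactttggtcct
Cd200: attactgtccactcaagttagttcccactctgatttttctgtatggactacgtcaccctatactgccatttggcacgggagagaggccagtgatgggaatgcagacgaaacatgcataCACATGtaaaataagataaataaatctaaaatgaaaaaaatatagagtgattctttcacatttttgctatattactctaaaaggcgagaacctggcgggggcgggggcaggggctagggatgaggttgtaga
Oscar: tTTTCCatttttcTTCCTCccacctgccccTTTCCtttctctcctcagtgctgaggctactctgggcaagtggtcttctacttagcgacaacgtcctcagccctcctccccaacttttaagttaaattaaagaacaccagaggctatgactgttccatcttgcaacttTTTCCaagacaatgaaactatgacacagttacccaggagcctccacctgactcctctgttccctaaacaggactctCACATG
Rnase4: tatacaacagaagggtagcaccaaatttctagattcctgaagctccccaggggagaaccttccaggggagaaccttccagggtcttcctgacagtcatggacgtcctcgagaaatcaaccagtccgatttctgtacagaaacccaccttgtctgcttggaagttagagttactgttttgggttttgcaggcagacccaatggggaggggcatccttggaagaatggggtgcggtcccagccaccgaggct
Igf1: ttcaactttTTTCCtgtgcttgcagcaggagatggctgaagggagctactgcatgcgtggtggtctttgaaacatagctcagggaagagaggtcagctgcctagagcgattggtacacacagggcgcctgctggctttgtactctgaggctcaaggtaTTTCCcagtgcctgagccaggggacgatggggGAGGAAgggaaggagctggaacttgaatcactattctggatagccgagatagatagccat
Cd36: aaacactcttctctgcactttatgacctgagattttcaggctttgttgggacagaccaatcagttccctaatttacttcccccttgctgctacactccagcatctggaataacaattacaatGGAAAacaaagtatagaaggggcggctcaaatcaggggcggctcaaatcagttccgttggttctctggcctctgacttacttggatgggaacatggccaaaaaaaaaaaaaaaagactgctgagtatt

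None of the 6 windows held an AP-1 match, and those of Mt3 and Rnase4 held no match to any of the motifs. The Oscar window held 3 NFAT cores, 1 PU.1 core and 1 E box, none overlapping another, and the Igf1 window, of a gene that fell, held 2 NFAT cores and 1 PU.1 core. Over all 9786 tested genes with a promoter entry, an AP-1 match was found in 3.09% of windows, an NFAT core in 54.5%, a PU.1 core in 22.8% and an E box in 15.4%. For AP-1 the share was 4.64% among genes at least 2-fold higher, 4.39% among those at least 2-fold lower and 2.65% among those not called. The NFAT core was in 51.7% of the first set and 56.5% of the second. A match is a description of letters only. The Rnase4 window is also that of Ang, a ribonuclease gene that shares its start with Rnase4, and both fell.

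The genes of the finished osteoclast had the highest median of the lists of 3 or more tested genes. Of 29 effector genes, 27 rose and none fell, with a median log2 fold change of 8.56, which stays the same when the 3 members without counts in M-CSF are set to their bound. Their summed level went from 1614 to 1829 CPM in the M-CSF libraries to 43593 to 50393 CPM with RANKL. The 2 that were not called were Pde4b, with a log2 fold change of 0.89, and the adaptor gene Gab2, at 0.01. The list was chosen with earlier results of these data known, so its count and rank are a description and not a test.

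The proteases led in counts. Mmp9, a gelatinase, was at 3.52, 1.14 and 6.40 CPM without RANKL and at 15771, 15277 and 17780 CPM with it. The increase was 12.10 ± 0.64 on the log2 scale, and 12.83 without M-CSF replicate 3, its highest control. Ctsk, the cathepsin that cuts bone collagen, went from 4.08, 2.704 and 0.696 CPM to 12677, 9555 and 8949 CPM. Per kilobase of exon, Ctsk stood above Mmp9 with RANKL, at 6874 against 4599 CPM per kb. Mmp14, a membrane-bound collagenase, went from 2.50, 2.28 and 1.53 CPM to 836, 749 and 808 CPM, a log2 fold change of 8.58 ± 0.25 (adjusted p = 2.56e-11). All 3 proteases were separated by every library.

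Acp5, the acid phosphatase used as a stain for osteoclasts, was at 1.95, 1.92 and 1.74 CPM without RANKL and at 5753, 4423 and 4737 CPM with it. Car2, the carbonic anhydrase that supplies protons for acid secretion, had 2 counts over the 3 M-CSF libraries and lay at 428, 383 and 359 CPM with RANKL. Its ratio was 7617, with a 95% counting interval of 2108 to 62898. The libraries again fell into 2 distant levels, and the width of the interval comes from the 2 control counts.

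Receptors and a membrane glycoprotein of the mature cell went from 0 to 2 counts over the M-CSF libraries to levels above 30 CPM in every RANKL library. Calcr, the calcitonin receptor, had 0 counts in all 3 M-CSF libraries and lay at 62.3, 57.2 and 83.8 CPM with RANKL, at least 889-fold higher taking 3 counts in the whole control group as the floor. Oscar, a collagen receptor that signals through an ITAM adaptor, had 2 counts without RANKL and 284, 265 and 239 CPM with it, a ratio of 5133 (95% counting interval 1421 to 42389). Mst1r, the receptor for macrophage-stimulating protein, had 2 counts against 265, 195 and 320 CPM, and Htr1b, a serotonin receptor, had 0 counts against 32.9, 31.3 and 40.3 CPM, at least 457-fold higher. Cd200, a membrane glycoprotein that restrains myeloid cells through its receptor, had 2 counts against 314, 268 and 305 CPM (ratio 5780, interval 1600 to 47729). None of these receptors had an M-CSF library near any RANKL library.

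Other genes went from 0 or 1 count to well above the floor. Mt3, a metallothionein that binds zinc and copper, had 0 counts in each M-CSF library and 350, 230 and 232 CPM with RANKL, at least 3500-fold higher. Steap4, a metalloreductase, had 0 counts against 68.5, 68.7 and 61.0 CPM, at least 861-fold higher. Nyap2, an adaptor of phosphoinositide 3-kinase, had 0 counts against 63.5, 67.2 and 109 CPM, and Rufy4, whose product acts in lysosome positioning and autophagy, had 1 count against 187, 161 and 209 CPM. Other genes with 0 counts in M-CSF included Sphk1, the kinase that makes sphingosine 1-phosphate, at 24.3, 22.4 and 30.7 CPM with RANKL, and Flnc, a filamin, at 35.01, 18.9 and 38.3 CPM. For each of these the control group sat at the floor of detection and every RANKL library stood well above it.

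**Figure D2:**
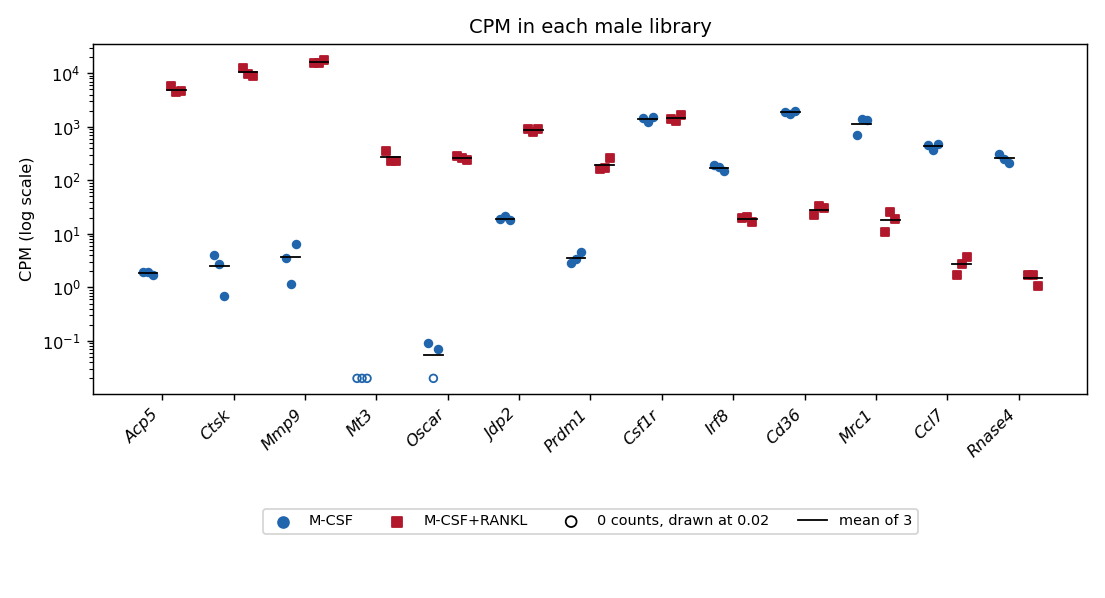
CPM (log scale) of 13 genes in each of the 3 male M-CSF libraries (blue circles) and 3 male M-CSF+RANKL libraries (red squares), with a bar at each group mean and open circles for 0 counts, drawn at 0.02. Csf1r overlaps between the groups, and every other gene is parted by all 6 libraries.

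At the start of the pathway, the receptor itself rose. Tnfrsf11a, which encodes RANK, lay at 132, 118 and 131 CPM without RANKL and at 296, 286 and 326 CPM with it, a log2 fold change of 1.25 ± 0.11 (adjusted p = 3.48e-07). Of 29 genes of RANK and NF-kB signalling, 19 rose and 1 fell, with a median of 0.94. The largest rise was that of Traf1, an adaptor of tumour necrosis factor receptors, from 4.45, 7.19 and 4.87 CPM to 292, 244 and 234 CPM (log2 fold change 5.53 ± 0.19, adjusted p = 7.38e-11). Inhibitors of NF-kB rose too: Nfkbia went from 72.5, 72.2 and 70.0 CPM to 452, 422 and 446 CPM, and Nfkbie from 14.8, 15.5 and 13.2 CPM to 75.8, 70.0 and 70.6 CPM. The kinases at the centre of the cascade were not called, with log2 fold changes of -0.15 for Chuk, -0.18 for Ikbkb and -0.15 for Map3k7, 3 genes picked out after their values were seen. The 1 member that fell was Nfkbiz, a nuclear co-factor of NF-kB, at -1.05, and its call was lost without M-CSF replicate 3 (-0.69) or RANKL replicate 1 or 2 (-0.83 and -0.87).

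The transcription factors of the lineage split. Of 27, 14 rose and 10 fell, with a median of 0.33. Nfatc1 was at 53.2, 56.2 and 64.3 CPM without RANKL and 813, 783 and 1010 CPM with it. Jdp2, an AP-1 family member required for osteoclast formation in mice, went from 18.8, 21.1 and 18.1 CPM to 899, 811 and 895 CPM, an increase of 5.49 ± 0.15 on the log2 scale (adjusted p = 2e-11). Prdm1, which encodes the repressor Blimp1 and in mouse osteoclasts silences anti-osteoclast factors, went from 2.88, 3.42 and 4.52 CPM to 163, 170 and 260 CPM, an increase of 5.76 ± 0.24. Fos was at 54.2, 72.3 and 39.5 CPM and rose to 236, 301 and 183 CPM, while its relative Fosb fell by 2.63 on the log2 scale from 0.928, 1.21 and 1.25 CPM, or by 3.38 without RANKL replicate 3.

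A pair of related repressors of the basic helix-loop-helix family went opposite ways. Bhlhe40 rose from 8.63, 10.3 and 10.02 CPM to 321, 318 and 321 CPM, a log2 fold change of 5.04 ± 0.19 (adjusted p = 2.35e-10). Bhlhe41 fell from 35.3, 43.3 and 32.0 CPM to 0.994, 1.69 and 0.697 CPM, a log2 fold change of -5.02 ± 0.25 (adjusted p = 2.29e-09). The 2 changes are nearly equal in size, and neither gene has overlapping groups. Other falls were those of Ets2, at -2.54 ± 0.28, and Batf3, a factor of dendritic cells, at -2.01 ± 0.30. Myc, at 99.5, 81.2 and 118 CPM without RANKL and 123, 108 and 82.9 CPM with it, overlapped between the groups and was not called (adjusted p = 0.783).

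Genes on a list of repressors of osteoclast formation were mostly lower. Not all 20 are repressors only, since Sirpa is also on the cell fusion list. Of the 20, 14 fell and 1 rose, with a median of -1.21. Irf8, the monocyte factor whose loss increases osteoclast formation in mice, went from 191, 178 and 146 CPM to 20.1, 20.3 and 16.9 CPM, a log2 fold change of -3.17 ± 0.17 (adjusted p = 4.08e-09). Maf, a transcription factor of macrophages, fell from 273, 348 and 275 CPM to 9.44, 21.5 and 19.2 CPM, by 4.15 on the log2 scale. The 1 rise, of the orphan nuclear receptor gene Nr4a2 at 0.76, started from under 2 CPM and its call was lost without M-CSF replicate 1 (0.73) or RANKL replicate 3 (0.65).

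The calcium and ITAM arm showed no common direction, with 8 of 36 higher and 14 lower. Atp2b4, a plasma membrane calcium pump, rose by 3.62 ± 0.29 on the log2 scale, Rcan1, an inhibitor of calcineurin, by 2.31 ± 0.24 and Orai2, a subunit of the store-operated calcium channel, by 2.12 ± 0.11. Trem2, a receptor that signals through the ITAM adaptor DAP12, fell from 522, 473 and 336 CPM to 35.9, 46.8 and 39.7 CPM, a log2 fold change of -3.44 ± 0.18 (adjusted p = 3.17e-09). The sarcoplasmic calcium pump gene Atp2a3 fell by 2.26 and the kinase gene Camk1 by 1.89.

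Among 24 genes of cell fusion, 10 rose and 10 fell. Ocstamp, which acts with Dcstamp in the merging of precursors, went from 0.649, 0.712 and 0.139 CPM to 557, 421 and 499 CPM, an increase of 9.96 ± 0.28 on the log2 scale. Dcstamp rose from 2.41, 2.56 and 2.09 CPM to 731, 562 and 759 CPM. The falls were led by the tetraspanin gene Cd81, at -3.56 ± 0.21, and the metalloprotease genes Adam8, at -2.42 ± 0.14, and Adam15, at -2.17 ± 0.13.

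Most genes of the vacuolar ATPase, the proton pump that acidifies the resorption pit, rose. Of 19 tested, 15 rose, 1 fell and 3 were not called, with a median of 1.61. In the membrane sector V0, 5 of 8 rose and 1 fell, and in the catalytic sector V1, 8 of 9 rose. Atp6v0d2, the d subunit form of osteoclasts, went from 5.75, 11.0 and 2.85 CPM to 2005, 1900 and 1952 CPM, an increase of 8.22 ± 0.36 on the log2 scale, or 8.86 without M-CSF replicate 2. Atp6v1b2, a catalytic-sector subunit, was far from silent before RANKL, at 576, 604 and 432 CPM, and reached 3861, 3481 and 3979 CPM. Against these, Atp6v0a1, one of the alternative a subunits, fell from 252, 328 and 276 CPM to 35.3, 39.7 and 40.5 CPM, a log2 fold change of -2.89 ± 0.14 (adjusted p = 1.66e-09). It was the only one of the 19 to be called lower.

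Attachment genes rose in the integrin pair of the osteoclast and fell in others. Itgb3, the beta subunit of the vitronectin receptor, went from 1.76, 2.06 and 1.46 CPM to 473, 321 and 679 CPM. Its partner Itgav rose from 104, 87.6 and 123 CPM to 552, 550 and 923 CPM, an increase of 2.68 ± 0.22 on the log2 scale. Itgb5, another beta chain that pairs with Itgav, fell by 2.33 ± 0.17. Itga2, a collagen receptor chain, had 1 count without RANKL and 40.3, 37.5 and 62.7 CPM with it (ratio 1848, interval 331 to 73020). Of the 17 integrin genes tested, 7 rose and 5 fell, Itga8 and Itga6 among the latter at -4.31 and -2.23.

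Podosome and actin genes numbered 22 higher and 18 lower of 48. Src, the tyrosine kinase without which mouse osteoclasts form no ruffled border, went from 0.557, 0.712 and 0.278 CPM to 420, 429 and 470 CPM, an increase of 9.72 ± 0.20 on the log2 scale (adjusted p = 3.3e-12). Fyn, of the same kinase family, fell by 1.76 ± 0.12, and the focal adhesion kinase gene Ptk2 by 2.15 ± 0.17. Fscn1, which bundles actin, had 0 counts without RANKL and 2.06, 1.496 and 1.39 CPM with it, at least 21.4-fold higher.

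The lysosome did not move as a block. Of 16 cathepsin and cystatin genes 6 rose and 8 fell, and of 35 lysosomal proteins 13 rose and 13 fell. The cathepsins of the macrophage went down while Ctsk went up: Ctsb from 10488, 11251 and 8133 CPM to 1862, 1867 and 1886 CPM, a log2 fold change of -2.41 ± 0.12, and Ctsl from 2619, 1931 and 2301 CPM to 361, 346 and 349 CPM, at -2.70 ± 0.14. Lgmn, the asparaginyl endopeptidase, fell by 3.31 ± 0.16 and Lipa, the acid lipase, by 2.41 ± 0.11. On the rising side Arsb, which desulfates cartilage and matrix glycosaminoglycans, went from 27.5, 28.2 and 30.2 CPM to 411, 402 and 569 CPM, a log2 fold change of 4.01 ± 0.21 (adjusted p = 2.99e-09), and Smpd1, the acid sphingomyelinase, rose by 2.35 ± 0.14. Of 11 matrix metalloproteinase and inhibitor genes, 3 rose and 6 fell, with Mmp27 at -5.83 and the inhibitor Reck at -2.85, the latter -4.12 without RANKL replicate 3.

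Genes of mitochondrial metabolism rose almost throughout. Of 75 nuclear genes of the respiratory chain 72 rose and none fell, with a median of 1.16. Complex I had 34 of 37 higher (median 1.08), complex II all 4 (1.41), complex III all 9 (1.498), complex IV all 10 (1.11) and ATP synthase all 14 (1.12), and the cytochrome c gene rose too. The 3 not called were Ndufa2, Ndufa11 and Ndufb2 of complex I, at log2 fold changes of 0.45, 0.54 and 0.59. Cyc1, the cytochrome c1 of complex III, went from 137, 114 and 112 CPM to 519, 437 and 443 CPM, an increase of 1.95 ± 0.13 on the log2 scale (adjusted p = 4.01e-08), and Ndufv1, a core subunit of complex I, from 77.8, 70.9 and 64.7 CPM to 266, 254 and 236 CPM.

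Transcripts of the mitochondrial genome rose as well. All 10 tested protein genes of the chain encoded there were higher, with a median of 1.23, and all 13 tested genes on that chromosome of any kind were. The largest of the 10 rises, that of mt-Atp6 at 1.81, lost its call without M-CSF replicate 1, 2 or 3 or RANKL replicate 2 or 3. The mitochondrial share of all counts was 1.67 to 2.01% without RANKL and 3.63 to 3.86% with it. mt-Cytb, the cytochrome b gene, went from 3312, 2683 and 3555 CPM to 8939, 8273 and 8072 CPM, a log2 fold change of 1.40 ± 0.15 (adjusted p = 2.66e-06). A mitochondrial share is also used as a sign of RNA or cell quality, and its part in this result was not tested.

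Of 27 genes of the citrate cycle and pyruvate entry 26 rose, with a median of 1.35. Pdhb, a subunit of pyruvate dehydrogenase, went from 95.5, 98.1 and 87.8 CPM to 400, 383 and 345 CPM, and Pdk2, a kinase that inhibits that enzyme, rose by 2.79 ± 0.17 on the log2 scale. The 1 that fell was Idh1, the cytosolic isocitrate dehydrogenase, at -1.17 ± 0.17. Genes of the mitochondrial ribosome were 55 higher and 2 lower of 77 with a median of 0.53, and of 22 import genes 14 rose. The 2 ribosomal genes that fell, Mrpl39 at -0.36 and Mrps15 at -0.45, both lost their calls without M-CSF replicate 1 or 2 or RANKL replicate 2 or 3. Of 28 fatty acid oxidation genes 18 rose and 4 fell, led by Acad10, an acyl-CoA dehydrogenase, at 3.77 ± 0.27, with Acaa2, the last enzyme of the spiral, at 2.11 ± 0.13. Cpt1a, which admits long-chain fatty acids to mitochondria, fell by 0.57 ± 0.10.

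Glycolysis went the other way on balance, with 6 of 28 higher, 13 lower and a median of -0.27. Ldhb, the lactate dehydrogenase subunit that favours conversion of lactate to pyruvate, was the exception in size, from 1.76, 2.13 and 0.905 CPM to 102, 75.2 and 80.4 CPM, a log2 fold change of 5.75 ± 0.28 (adjusted p = 2.29e-09). The glucose transporter gene Slc2a3 fell from 29.6, 24.3 and 28.1 CPM to 2.49, 2.60 and 2.92 CPM, and the hexokinase gene Hk3 fell by 2.35 ± 0.16. The bifunctional regulators of the pathway exchanged places, with Pfkfb2 higher by 2.73 ± 0.23 and Pfkfb3 lower by 1.82 ± 0.17.

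**Figure D3:**
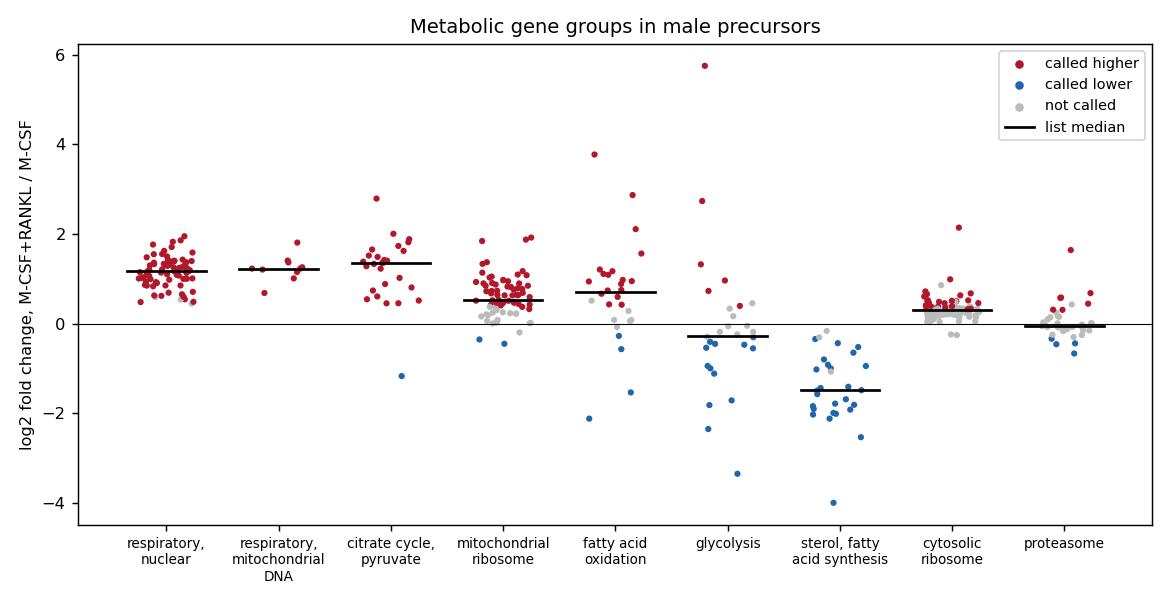
Log2 fold change (male M-CSF+RANKL over M-CSF) of each tested member of 9 metabolic gene groups, red where called higher, blue where called lower and grey where not called, with a bar at the group median. Nearly every respiratory chain and citrate cycle gene lies above 0, every sterol and fatty acid synthesis gene below it, and glycolysis on both sides.

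Synthesis of sterols and fatty acids fell. Of 29 genes 26 were lower and none higher, with a median of -1.49. Dhcr7, the last enzyme of cholesterol synthesis, went from 77.7, 89.7 and 56.0 CPM to 15.3, 19.2 and 16.9 CPM, a log2 fold change of -2.12 ± 0.19 (adjusted p = 6.64e-07), and Elovl6, a fatty acid elongase, fell by 2.53 ± 0.16. Scd1, the stearoyl-CoA desaturase, was at 91.5, 272 and 56.7 CPM and fell to 1.70, 21.4 and 3.04 CPM. Replicate 2 was the highest of each group for Scd1, and its log2 fold change of -4.00 became -3.08 without M-CSF replicate 2 and -5.85 without RANKL replicate 2. The same replicate number was highest for the whole list: the mean log2(CPM + 0.1) over its members was 6.74, 7.12 and 6.55 in the M-CSF libraries and 5.23, 5.70 and 5.16 with RANKL, so the groups did not overlap.

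Iron handling changed at its main gates. Tfrc, the transferrin receptor that brings iron in, went from 296, 263 and 299 CPM to 1287, 959 and 1410 CPM, a log2 fold change of 2.09 ± 0.25 (adjusted p = 7.44e-06). Slc40a1, the iron exporter ferroportin, went from 148, 165 and 242 CPM to 4.33, 7.02 and 5.77 CPM, at -5.01 ± 0.30. The ferritin gene Fth1 took the most counts of any gene without RANKL, at 15291, 14548 and 12973 CPM, and was at 3802, 3297 and 3284 CPM with it. Hmox1, which frees iron from haem, fell by 3.34 ± 0.15 and Cd163, the haemoglobin scavenger receptor, by 4.94 ± 0.24. In all, 21 of 38 iron and redox genes fell and 10 rose.

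Macrophage identity genes were mostly lower. Of 38 tested, 31 fell and none rose, with a median of -2.70, and their summed level went from 27899 to 32466 CPM down to 8370 to 9016 CPM. Folr2, a folate receptor of tissue macrophages, went from 36.0, 34.4 and 16.4 CPM to 0.284, 0.455 and 0.444 CPM, a log2 fold change of -6.15 ± 0.44. Siglec1, a sialic acid receptor, fell from 186, 195 and 120 CPM to 1.49, 2.41 and 3.30 CPM. Mrc1, the mannose receptor, was at 710, 1392 and 1331 CPM and fell to 10.7, 25.7 and 18.8 CPM. Csf1r was not part of this fall, at 1486, 1247 and 1544 CPM against 1376, 1311 and 1654 CPM, and its 95% interval lay within 2-fold of no change (log2 fold change 0.02 ± 0.12, adjusted p = 0.903).

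Scavenger and complement genes followed, 22 of 29 lower and 3 higher. Stab1, a scavenger receptor, fell from 2551, 2994 and 2948 CPM to 41.8, 57.7 and 87.4 CPM, a log2 fold change of -5.50 ± 0.37. Cd36, which takes up oxidised lipids and fatty acids, fell from 1907, 1762 and 1968 CPM to 22.5, 32.6 and 29.9 CPM, by 6.05 on the log2 scale. The 3 that rose were Mfge8, which bridges dying cells to phagocytes, at 2.07 ± 0.16, Clec4a2, a lectin receptor, at 2.06 ± 0.11, and C3 at 1.41 ± 0.33. Of 9 tested Ms4a genes 7 fell.

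The largest single fall was that of Slco2b1, an organic anion transporter, from 56.4, 59.7 and 67.2 CPM to 0.0710, 0 and 0.190 CPM, a log2 fold change of -9.29 ± 0.48, or -10.47 without RANKL replicate 3. Rnase4 fell from 311, 247 and 215 CPM to 1.70, 1.69 and 1.08 CPM, at -7.43 ± 0.21, and Ang from 23.4, 18.4 and 14.1 CPM to 0.213, 0.195 and 0.190 CPM. Hmga2, a chromatin protein of immature cells, fell from 149, 98.7 and 128 CPM to 1.14, 0.585 and 1.96 CPM, at -6.65 ± 0.28. Pmp22, a membrane protein known from peripheral nerve, fell from 666, 769 and 597 CPM to 7.10, 15.6 and 11.1 CPM. Nes, the intermediate filament nestin, fell by 7.12 from 38.7, 39.5 and 128 CPM, and by 6.31 without M-CSF replicate 3, its highest library, or 8.59 without RANKL replicate 3. All of these separated the groups in every library.

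Of 49 chemokine and cytokine genes 14 rose and 21 fell, with a median of -0.96, and their summed level went from 10326 to 13984 CPM down to 4002 to 4464 CPM. Monocyte attractants fell: Ccl7 went from 457, 368 and 479 CPM to 1.70, 2.73 and 3.68 CPM, a log2 fold change of -7.31 ± 0.40, Ccl2 from 1015, 783 and 827 CPM to 13.1, 15.1 and 18.5 CPM, and Ccl12 fell by 6.70 ± 0.59. Igf1, a growth factor for bone cells, fell from 617, 655 and 425 CPM to 4.69, 8.97 and 4.06 CPM, at -6.58 ± 0.35. Ccl9, a chemokine of osteoclasts, was already at 1409, 1371 and 1278 CPM and rose to 2274, 1949 and 2131 CPM.

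Other genes of the list rose from low levels. Vegfc, the lymphatic growth factor, went from 0.0928, 0.142 and 0.0696 CPM to 33.8, 26.3 and 22.6 CPM, an increase of 7.95 ± 0.33 on the log2 scale, and Lif, a cytokine that acts on osteoblasts, from 0.186, 0.142 and 0.209 CPM to 33.8, 24.4 and 36.1 CPM, at 7.39 ± 0.33. Hbegf, a ligand of the EGF receptor, rose by 4.86 ± 0.41. Tnf fell by 1.73 ± 0.29 from 55.0, 56.9 and 30.8 CPM, and Il1b rose by 1.44 ± 0.34 but stayed under 3 CPM in every library.

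Genes of osteoclast signals to osteoblasts, nerves and vessels were listed together with receptors, among them plexins, neuropilins and frizzleds. Of 38 tested, 22 were higher and 9 lower, with a median of 1.18. Sema7a, a membrane-anchored semaphorin, went from 0, 0.142 and 0.139 CPM to 66.2, 50.4 and 76.0 CPM, an increase of 9.18 ± 0.35 on the log2 scale. Sema3a had 0 counts in M-CSF and 3.62, 4.55 and 3.80 CPM with RANKL, at least 52.3-fold higher, while Nrp1, the receptor it binds, fell from 303, 391 and 436 CPM to 16.3, 18.3 and 25.9 CPM, at -4.22 ± 0.22. Sema4c fell by 3.52 ± 0.27. Receptors for cytokines were 16 higher and 27 lower of 51: Tnfrsf9, the T cell costimulator 4-1BB, had 1 count without RANKL and 23.7, 15.9 and 20.7 CPM with it (ratio 785, interval 141 to 31035), and Il7r fell from 66.0, 103 and 69.8 CPM to 3.98, 6.18 and 6.15 CPM.

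Sensors of nucleic acids and microbes fell, 29 of 41 with 6 higher. The endosomal receptor genes Tlr7, Tlr8 and Tlr13 fell by 4.50 ± 0.31, 4.36 ± 0.36 and 3.93 ± 0.26 on the log2 scale, Tlr7 from 169, 208 and 205 CPM to 6.32, 10.4 and 8.9996 CPM. Casp4, the sensor of cytosolic lipopolysaccharide, rose by 2.15 ± 0.14 and Gsdmd, the pore protein it cuts, by 1.89 ± 0.11. For purine and lipid mediator receptors and enzymes the count was 23 lower and 7 higher of 36. P2ry12, an ADP receptor, fell by 4.56 ± 0.39, while P2rx5, an ATP-gated channel, rose from 0.371, 0.783 and 0.557 CPM to 24.9, 24.2 and 23.01 CPM.

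Interferon-stimulated genes were 34 lower and 3 higher of 44, with a median of -1.82, and 1 library carried much of that size. Their mean log2(CPM + 0.1) was 3.35, 4.76 and 3.06 in the M-CSF libraries and 2.32, 2.56 and 2.37 with RANKL, so M-CSF replicate 2 stood apart. Without it, 24 of the 44 were still called lower and the median was -1.14. Ifit2, for example, was at 9.18, 42.1 and 8.21 CPM against 2.13, 2.99 and 2.60 CPM, and its log2 fold change of -2.94 became -1.75 without that library. Oasl2 went from -3.11 to -2.25 and Cmpk2 from -3.08 to -1.77 in the same way. Of the 3 that rose, Gbp7, a guanylate-binding protein, did so by 2.30 ± 0.37, and only 1 was called without M-CSF replicate 1 or 3 or RANKL replicate 2 or 3.

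Genes of cell division fell together. Of 40 DNA replication genes 33 fell and 1 rose, with a median of -0.88, and of 46 mitosis genes 42 fell and 1 rose, with a median of -1.12. Pcna, the sliding clamp of DNA polymerases, went from 695, 648 and 553 CPM to 174, 170 and 151 CPM, a log2 fold change of -1.94 ± 0.11 (adjusted p = 7.94e-09), and Nuf2, of the kinetochore, from 89.7, 85.0 and 103 CPM to 33.9, 33.4 and 24.5 CPM. The genes stayed expressed, since Nuf2 kept more than 20 CPM in every library. The 2 that rose were Cdt1, the licensing factor, at 0.37 ± 0.11, and Espl1, the separase, at 0.40 ± 0.12.

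Of 38 genes of cell cycle control and survival 11 rose and 21 fell, with a median of -0.57. Bcl2l1, which encodes the anti-death protein Bcl-xL, fell from 184, 186 and 172 CPM to 16.6, 14.7 and 18.6 CPM, a log2 fold change of -3.44 ± 0.13 (adjusted p = 2.65e-10). Bcl2a1a, another anti-death gene with close copies in the mouse genome, had 1 count in M-CSF and 3.76, 3.45 and 1.84 CPM with RANKL. Of the genes whose products promote death, Bmf rose by 2.68 ± 0.25 and Pmaip1 by 2.32 ± 0.21, and Bik fell by 4.62 ± 0.50, or 5.25 without RANKL replicate 3. Cdkn2a, a cell cycle inhibitor, fell by 3.33 ± 0.34.

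**Figure D4:**
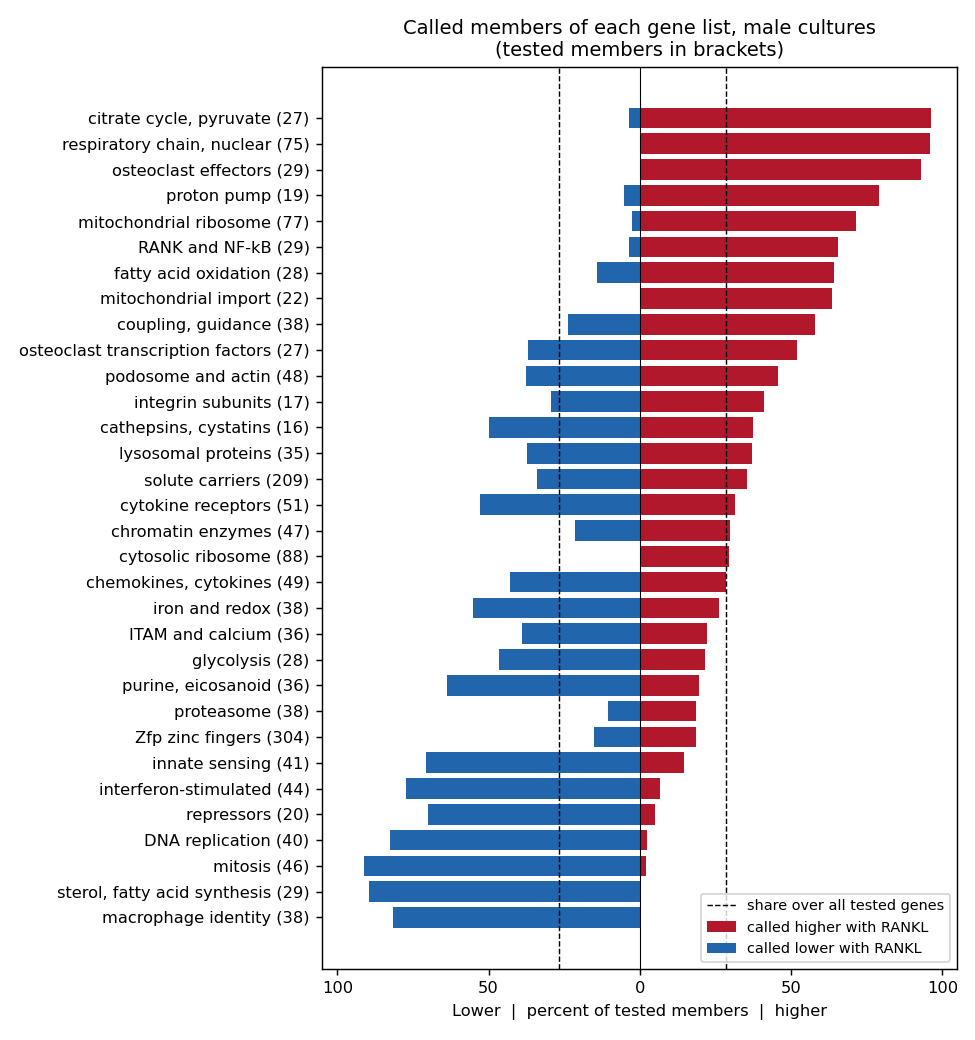
Percent of the tested members of each of 32 gene groups called higher (red, to the right) or lower (blue, to the left) with RANKL in male cultures, with the number tested in brackets and dashed lines at the 28.4% higher and 26.6% lower of all tested genes. Citrate cycle, respiratory chain and osteoclast effector genes lie at the top and macrophage, sterol and division genes at the bottom, and most signalling and transport groups hold both directions.

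Enzymes that mark or read chromatin gave 14 higher and 10 lower of 47, and 23 not called. Dnmt3a, a DNA methyltransferase, went from 99.1, 152 and 142 CPM to 703, 770 and 756 CPM, a log2 fold change of 2.50 ± 0.18 (adjusted p = 6.45e-08), and the histone demethylase gene Kdm5b rose by 2.77 ± 0.19. Hdac9, a histone deacetylase, fell from 47.8, 47.5 and 54.9 CPM to 1.70, 2.86 and 4.94 CPM, at -3.96 ± 0.29. Of the 304 tested Zfp zinc finger genes 56 rose, 46 fell and 202 were not called. Zfp462 went from 1 count over the M-CSF libraries to 76.0, 93.2 and 112 CPM (ratio 3703, 95% counting interval 664 to 146314).

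Solute carriers held both directions, with 74 higher and 71 lower of 209. Slc9b2, a sodium-proton exchanger of osteoclasts, went from 1.48, 2.92 and 1.04 CPM to 699, 601 and 779 CPM, an increase of 8.56 ± 0.27 on the log2 scale. Slc6a4, the serotonin transporter, had 0 counts in M-CSF and 9.37, 6.76 and 7.42 CPM with RANKL, at least 102-fold higher. Slc1a5, a glutamine transporter, rose from 115, 125 and 116 CPM to 513, 523 and 525 CPM, and Slc7a8, a carrier of neutral amino acids, fell from 508, 348 and 485 CPM to 46.4, 46.9 and 57.3 CPM. Rab38, a small GTPase of lysosome-related organelles, rose by 6.44 ± 0.26 and Tspan7, a tetraspanin, by 7.84 ± 0.32.

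Housekeeping machines moved little. Of 88 cytosolic ribosome genes 26 rose and none fell, at a median of 0.30, and that count fell to 11 to 15 when M-CSF replicate 2 or 3 or RANKL replicate 1 or 2 was left out and was 48 with the replicate number as a block. The proteasome had 7 higher and 4 lower of 38, 27 not called and a median of -0.05. The 7 became 4 without M-CSF replicate 3 or RANKL replicate 1, and the 4 became 7 under the block and 2 without M-CSF replicate 1 or 2 or RANKL replicate 2 or 3. Eef1a1, the elongation factor, lay at 7427, 7091 and 6957 CPM without RANKL and 7111, 7501 and 6570 CPM with it, where the groups overlap and the change was not called (adjusted p = 0.883).

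**Figure D5:**
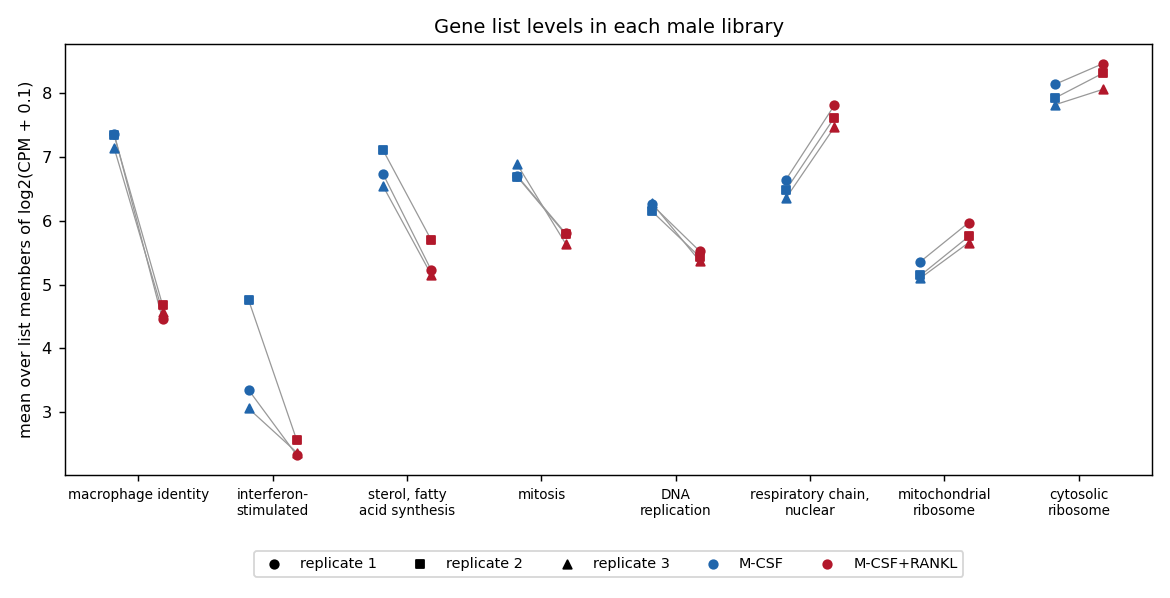
Mean log2(CPM + 0.1) over the tested members of 8 gene lists in each male library, blue for M-CSF and red for M-CSF+RANKL, with the replicate number as the marker shape and lines joining equal numbers. M-CSF replicate 2 stands apart for interferon-stimulated genes at 4.76, replicate 2 is highest in both groups for sterol synthesis, and only the cytosolic ribosome list overlaps between the groups.

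Markers of other blood and stromal cells moved in a few cases, and their part in the results above was not tested. Of the T and NK cell list 2 of 15 genes passed the filter, with a summed level of 0.371 to 1.85 CPM without RANKL and 3.36 to 4.29 CPM with it. Of the B cell list 3 of 12 passed, at 141 to 339 CPM and 12.8 to 16.9 CPM, nearly all of it Ighm, an immunoglobulin heavy chain gene that fell by 4.08 ± 0.33 on the log2 scale. The erythroid and megakaryocyte list had 2 of 13, at 256 to 387 CPM and 4.69 to 15.4 CPM, led by the platelet chemokine gene Pf4, which fell by 5.24 ± 0.51, or by 5.83 without RANKL replicate 3. The mast cell, basophil and eosinophil list had 2 of 11, at 4.52 to 13.9 CPM and 57.6 to 89.6 CPM, led by Ccr3, a chemokine receptor gene that rose by 2.81 ± 0.38. The neutrophil list had 12 of 15, at 216 to 265 CPM and 106 to 164 CPM, with only Mmp8 called, lower by 1.94 ± 0.24, and the stromal list 5 of 16, at 12.1 to 18.4 CPM and 11.5 to 14.5 CPM.

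Whether the male response differed from the female one was tested gene by gene in the same fit. None of the 13236 genes was called for the difference (0%, edgeR quasi-likelihood test), nor by DESeq2, and 260 had an unadjusted p below 0.05 against 662 that make up 5% of the genes tested. That number depended on the fit. It was 658 with the replicate number as a block, and ranged from 159 to 761 when 1 library was left out. A number below 5% is therefore not a measure of likeness. A difference beyond 2-fold either way lay outside the 95% interval for 9003 genes, 4967 of them called in the male response. The interval was wider for genes with few control counts. For Nfatc1, well measured without RANKL, the male minus female difference was 0.21, with an interval of -0.13 to 0.56. For Ctsk, low without RANKL, the difference was -0.25, with an interval of -1.53 to 1.04. For Calcr, with 0 male M-CSF counts, the interval ran from -1475.87 to 1476.5, so the test cannot decide there. Nothing above is therefore particular to the male cultures by this test, and the genes without a call are not shown to respond alike.

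The authors' deposited table gives its own male comparison for 10255 genes, of which 6007 have a false discovery rate below 0.05 there. Of these 5926 were called here in the same direction, and the log2 fold changes in the authors' deposited table differed from those here by no more than 0.0163. A further 2981 tested genes lie outside that table, and 1315 of them were called here.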

How the data were processed

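RNA was measured by sequencing in 12 libraries, 3 in each group of sex and treatment, and the 6 male libraries were compared here. The authors deposited 1 table of raw counts per gene. Per the submitters' processing notes, fastp, STAR 2.7.3a, edgeR and the mm10 build were used. How reads were assigned to genes, with or without regard to strand and from which gene models, is not given in the sources used here. Overlapping, antisense and near-identical genes are therefore uncertain. The authors' deposited table of comparisons covers fewer genes, giving for each a log2 fold change, a p-value and its false discovery rate.

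Counts were analysed in R 4.3.3 with edgeR 4.0.16 and limma 3.58.1: genes were kept by filterByExpr with a minimum count of 10, scaled by TMM, and tested with the quasi-likelihood F test over all 12 libraries by group, with Benjamini-Hochberg adjustment over 13236 genes at 0.05. CPM are counts of tested genes scaled to a common library size after TMM, and fold changes are on the log2 scale with SE from the F statistic. Genes with 0 counts in a group are given as a bound against 3 counts over that group, and those with 1 to 3 counts as a ratio with a 95% interval that covers counting error only. The tests were also run on simulated data. DESeq2 1.42.0 was an alternative. The lowest male depth was 10814687 counts. Gene types and lengths came from a GRCm38 annotation that matched 13233 tested genes, and promoters from RefSeq, GRCm38.p6, for 9786.

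Equal replicate numbers were treated as pairs in an alternative fit: in the male libraries the deviations from the group means correlated at 0.371 to 0.706 between equal numbers and at -0.618 to -0.0584 between others, across 8920 genes, which are not independent replicates. Deviations from a group mean cancel within the group, so positive values between equal numbers force the others to be negative on average. The labels do not state what an equal number shares.

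The 308 genes eligible to be named were the 12 largest rises and falls at 5 CPM or more, the 8 largest each way at 200 CPM or more, the 10 with most counts per group, up to 3 each way per gene list, 8 with no count in 1 group, and a set of known genes. Genes outside these were chosen after their values were seen. Members and lists were chosen with earlier results of these data known.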

Additional observations from a re-analysis of the deposited data

How the results depend on the processing

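The number of genes called in the male response was 7276 and ranged from 6622 to 6914 when 1 male library at a time was left out. It was 7500 with no low count filter, 6008 with the authors' filter, 7272 with DESeq2 size factors, 7244 with upper quartile scaling, 7124 with the male libraries fitted alone and 7288 with DESeq2. With the replicate number as a block 8356 genes were called, 4318 higher and 4038 lower, and 7266 of the 7276 were among them in the same direction; beside the cytosolic ribosome and proteasome counts given above and a call for Ddx3y (-0.48), the block changed no call of a named gene. Of 308 named genes, 294 kept direction and side of the threshold under all alternatives run, 13 lost the call under at least 1, and none reversed. No gene was called for the difference between male and female responses under any alternative run. Depth limits the folds of genes with few or no counts in a group, which are bounds or wide intervals.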

Other observations

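Genes of early blood development did not move as a group, with 4 of 21 higher, 4 lower and 13 not called. Gata2, a factor of stem and mast cell precursors, went from 0.0928, 0.213 and 0.139 CPM to 3.91, 4.62 and 5.20 CPM, an increase of 4.83 ± 0.34 on the log2 scale (edgeR, adjusted p = 5.56e-08). Lmo2, an adaptor of blood cell transcription factors, fell from 119, 145 and 117 CPM to 18.3, 18.9 and 16.2 CPM, at -2.83 ± 0.14, and Ikzf1, which encodes Ikaros, from 98.4, 103 and 124 CPM to 21.7, 24.1 and 24.4 CPM, at -2.21 ± 0.19. Neither has overlapping groups.

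Immediate early genes parted in the same way, with 4 of 19 higher and 7 lower. Junb, an AP-1 subunit, rose from 63.4, 60.8 and 69.3 CPM to 216, 254 and 222 CPM, while Atf3, a stress factor that pairs with Jun proteins, fell from 184, 231 and 157 CPM to 8.88, 13.3 and 14.8 CPM, at -3.95 ± 0.24. Genes of antigen presentation and of dendritic cells showed no common direction. Of 23 tested, 5 rose, 6 fell and 12 were not called, with a median of -0.07. Within that list Itgax, which encodes CD11c, rose from 5.75, 5.05 and 6.33 CPM to 25.9, 25.4 and 23.1 CPM. Cd40, a costimulatory receptor, fell from 29.6, 29.9 and 18.4 CPM to 4.33, 3.84 and 3.11 CPM.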
